A study of Mus musculus with 5 samples.

Results

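The genes described here are 39 chosen by name for the 2 ways in which embryonic cells are held together. These genes were chosen with earlier results of these data known. They are the keratins, tight junctions, desmosomes and regulators of epithelia, and the cadherins, vimentin and transcription factors that are typical of mesenchyme. Each was represented by its brightest probe set among those annotated to that symbol alone. Of the 39, 38 were measured, out of 12393 genes on the array, and Cgn, which encodes the tight junction protein cingulin, was not analysed here. A filter on dim genes left 28 of the 38 for testing. The values came from whole mouse embryos of strain C57BL6J at gestation day 9.5, 3 Folr1+/+ replicates and 2 Folr1-/- replicates, with 1 Affymetrix Mouse Genome 430A array each. Folr1 encodes a folate receptor. The Folr1-/- embryos came from Folr1+/- parents, with dams fed extra folate before mating and through gestation, and what the mothers of the Folr1+/+ embryos ate is not given on its own. Decidua, chorion and amnion were removed, and the yolk sac is not mentioned. Whether each array was made from a single embryo or a pool is not given in the labels.

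Epithelial cells are joined in sheets by E-cadherin, sealed near their apical side by tight junctions and riveted by desmosomes, to which keratin filaments attach. Mesenchymal cells lack these seals, carry vimentin filaments, and often use N-cadherin or cadherin-11. ZEB transcription factors repress E-cadherin and other epithelial genes when cells leave an epithelium. At midgestation, simple epithelia line the gut and the yolk sac, a young surface ectoderm covers the embryo, and the neural tube is an epithelium that uses N-cadherin.

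Signals of simple epithelium were higher in the Folr1-/- arrays, while N-cadherin and Zeb1 were lower. Of the 28 tested members, 15 rose in the Folr1-/- arrays, 4 fell and 9 did not pass the threshold, a limma adjusted p under 0.05. Over all 7436 tested genes 8.19% rose and 6.79% fell, 15.0% in either direction. As the members were chosen with earlier results known, setting these shares side by side is no test. The 15 that rose were Krt8, Krt18, Krt19, Cdh1, Epcam, Cldn6, Cldn7, Ocln, Marveld2, F11r, Dsg2, Dsc2, Pkp2, Esrp1 and St14, and the 4 that fell were Cdh2, Zeb1, Tjp1 and Trp63. The ratio of the mean signal in Folr1-/- to that in Folr1+/+ ran from 1.70 to 3.58 among the 15, with a median of 2.47. Among the 4 that fell, Folr1+/+ was 1.38 to 2.87 times Folr1-/-. The groups did not overlap in 20 of the 28 tested members, beside 46.7% of all tested genes. The median log2 fold change, Folr1-/- minus Folr1+/+ on the log2(signal + 16) scale, was 0.82 over the 28 members and -0.02 over all tested genes. A gene dim in 1 group can pass the filter through the other group, which was so for 3 of the 28 (Cdh3, Pkp3 and Trp63). With no filter, 12 of the 38 measured members rose and 2 fell, beside 3.52% and 2.51% of all 12393 genes. In whole embryos, fewer cells of a type and less RNA per cell cannot be told apart.

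**Figure D1:**
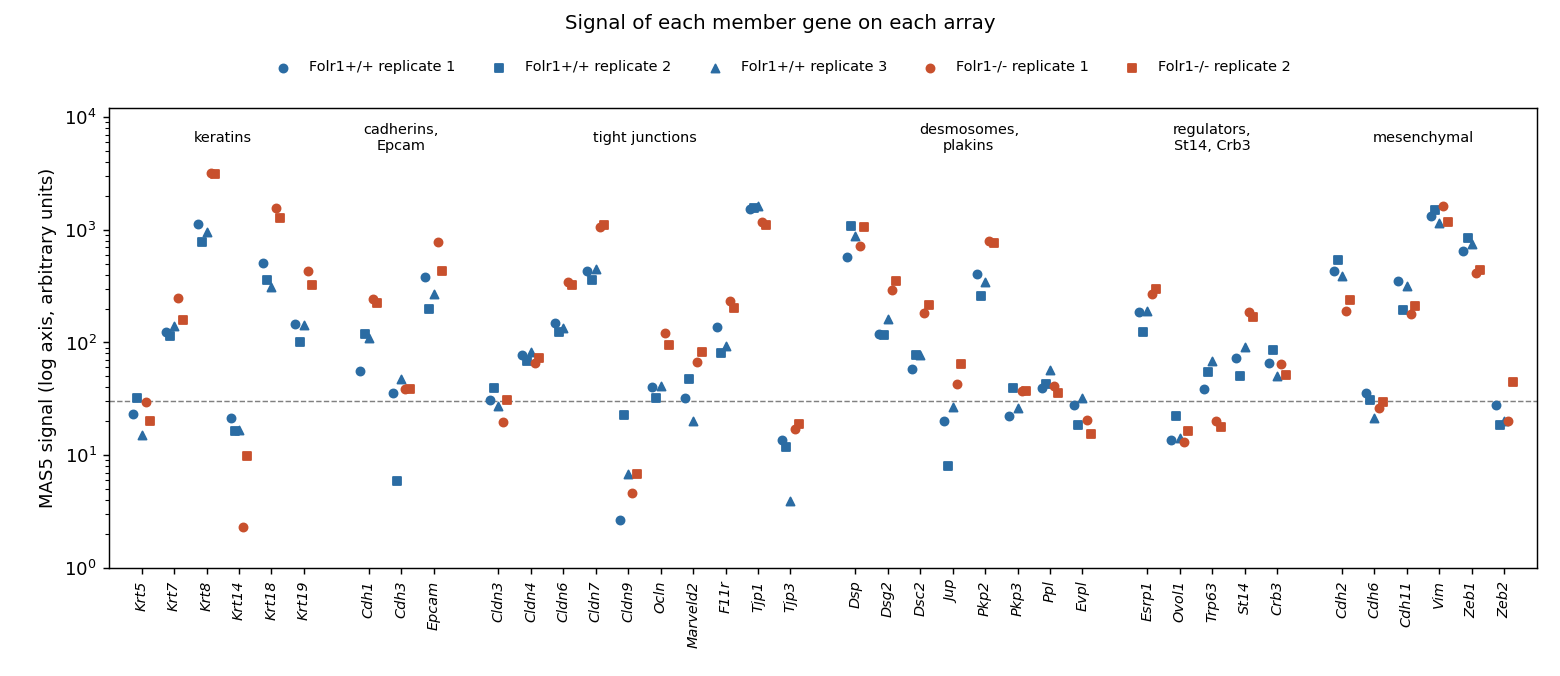
MAS5 signal (log axis) of the 38 measured members on each array, grouped by role, with blue for the 3 Folr1+/+ and orange for the 2 Folr1-/- replicates; the dashed line is the filter level, a signal of 30.004. Krt8, Krt18 and Cldn7 stand clear of the Folr1+/+ points, while Vim and Dsp overlap.

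Facts of the arrays bear on every result here. Across genes, pairs of Folr1+/+ arrays correlated at 0.975 to 0.983, the Folr1-/- pair at 0.986 and arrays of different groups at 0.954 to 0.969. Folr1 itself had signals of 57.0, 50.01 and 40.2 in Folr1+/+ and 50.2 and 41.8 in Folr1-/-, so its probe set does not check the genotype labels. Xist, which marks the inactive X chromosome of females, had 29.4, 35.7 and 25.0 in Folr1+/+ and 419 and 770.4 in Folr1-/-. The Y-linked Eif2s3y had 300.3, 345 and 372 in Folr1+/+ and 104 and 3.13 in Folr1-/-. Sex-linked signal thus differed with genotype, and an effect of sex cannot be told apart from one of genotype in these arrays. Signal of both kinds, Xist and Y-linked, was present on Folr1-/- replicate 1. When that array was left out, the members that rose numbered 8 and those that fell 0, while 367 of all 7436 genes passed in place of 1114, and 1 array then stands for its group and is assumed to vary like the others. The 8 were Krt8, Krt18, Krt19, Cldn6, Cldn7, Dsg2, Dsc2 and Pkp2.

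Promoter sequence is shown for members that rose together. RefSeq's promoter table, on build GRCm38.p6, held 22 of the 39 members, and the search covered the 250 bases before each gene's outermost start. Cdh1, Cdh2 and Zeb1 were among the 17 members without an entry, so they were not searched. The hexamer CACCTG, read on both strands, is the core that ZEB and SNAIL factors bind. It was found before 10 of the 22 members, 45.5%, and before 17.1% of all 27025 genes with a promoter there. Among tested genes with a promoter the share was 14.02%, among those that rose 19.7% of 477, and among those that fell 12.1% of 404. Of the 8 members that rose and have a promoter in the table, 5 held it (Cldn6, Epcam, F11r, Krt18 and Krt8). Cldn7, Marveld2 and Ocln did not hold it. The other 5 of the 10 were Cldn4, Crb3 and Krt7, which did not pass the threshold, and Krt5 and Tjp3, which were too dim to test. The stretches of those 5 that rose, and of Ocln, in which none of the motifs was found, read 5′ to 3′ as follows, with capitals at the CACCTG or CAGGTG matches and, in F11r, also at an AP-1 match.
Krt8, chr15:102004343-102004592, minus strand: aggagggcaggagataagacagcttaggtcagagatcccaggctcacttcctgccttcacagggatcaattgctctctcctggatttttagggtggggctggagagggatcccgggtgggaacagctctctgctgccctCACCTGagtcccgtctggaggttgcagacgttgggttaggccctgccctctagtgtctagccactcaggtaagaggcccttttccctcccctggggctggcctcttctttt
Krt18, chr15:102027966-102028215, plus strand: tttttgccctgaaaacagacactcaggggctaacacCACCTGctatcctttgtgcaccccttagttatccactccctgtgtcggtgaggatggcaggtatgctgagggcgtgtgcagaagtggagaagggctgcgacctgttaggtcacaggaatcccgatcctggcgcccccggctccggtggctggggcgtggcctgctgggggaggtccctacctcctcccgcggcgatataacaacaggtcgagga
Cldn6, chr17:23679115-23679364, plus strand: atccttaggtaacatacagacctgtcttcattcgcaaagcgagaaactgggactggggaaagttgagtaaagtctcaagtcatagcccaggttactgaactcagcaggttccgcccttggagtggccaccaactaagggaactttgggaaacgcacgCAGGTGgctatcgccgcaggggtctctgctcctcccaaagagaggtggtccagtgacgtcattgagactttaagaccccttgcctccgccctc
Epcam, chr17:87635729-87635978, plus strand: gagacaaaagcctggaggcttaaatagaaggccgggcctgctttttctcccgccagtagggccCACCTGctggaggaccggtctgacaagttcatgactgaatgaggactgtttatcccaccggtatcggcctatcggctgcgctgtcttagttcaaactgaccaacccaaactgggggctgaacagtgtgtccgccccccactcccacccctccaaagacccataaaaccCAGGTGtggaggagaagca
F11r, chr1:171437311-171437560, plus strand: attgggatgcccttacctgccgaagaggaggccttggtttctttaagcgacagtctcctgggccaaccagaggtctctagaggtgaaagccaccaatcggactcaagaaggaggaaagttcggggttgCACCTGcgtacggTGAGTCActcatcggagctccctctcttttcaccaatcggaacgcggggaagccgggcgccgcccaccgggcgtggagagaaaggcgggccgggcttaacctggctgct
Ocln, chr13:100552719-100552968, minus strand: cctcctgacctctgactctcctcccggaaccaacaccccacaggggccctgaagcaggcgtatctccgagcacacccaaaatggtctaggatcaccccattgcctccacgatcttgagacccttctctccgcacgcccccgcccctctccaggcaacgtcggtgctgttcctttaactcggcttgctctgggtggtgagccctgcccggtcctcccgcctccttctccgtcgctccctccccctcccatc
The AP-1 motif TGANTCA, on both strands, was found before F11r and Cldn4, 9.09% of the 22 members against 6.85% of all genes. The Grainyhead motif AACCNGTT, on both strands, was found before Cgn only, 4.55% against 1.74%. The TATA box TATAAA, on the sense strand, was found before Vim only, 4.55% against 8.13%. A match is a run of letters, and no binding was measured here.

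Keratins pair a type I with a type II chain to build filaments. Krt8 and Krt18 form the pair of simple epithelia and are the first keratins of the embryo. Krt8 had signals of 1127, 776 and 951 in Folr1+/+ and 3173 and 3109 in Folr1-/-. Both Folr1-/- values lay far above the Folr1+/+ range, and the ratio of group means was 3.30 (3141 ± 45.1, SD, n = 2, against 952 ± 176, SD, n = 3). On the log2 scale Krt8 rose by 1.72 ± 0.17 (SE, limma adjusted p = 5.2e-05). Krt18 had 509, 356 and 312 against 1547 and 1263. Its ratio of 3.58 was the largest among the members that rose, and its log2 fold change was 1.82 ± 0.20 (adjusted p = 0.00012). Krt19, a type I keratin of simple epithelia that often accompanies Krt8, had 145, 102 and 142 against 429 and 323. It rose by 1.43 ± 0.20 (adjusted p = 0.00057). The groups were apart in each of these 3 genes, with Folr1-/- replicate 1 above replicate 2.

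Krt7, a type II keratin of simple ducts and of trophoblast, had 124, 114 and 140.4 in Folr1+/+ and 248 and 159 in Folr1-/-. The groups did not overlap, but Krt7 missed the threshold at 0.60 ± 0.20 (adjusted p = 0.066). It passed with each array centred on its median (0.69, adjusted p = 0.047) and without Folr1-/- replicate 2 (0.90, adjusted p = 0.038), and was at 0.31 (adjusted p = 0.51) without Folr1-/- replicate 1. Krt5 and Krt14, the pair of basal cells in stratified epithelium, were too dim to test. Krt5 had 23.3, 32.1 and 15.2 against 29.9 and 20.2, which overlap. Krt14 had 21.4, 16.4 and 16.8 against 2.31 and 9.80, lower in both Folr1-/- arrays, and with no filter its log2 fold change was -0.65 (adjusted p = 0.12). In all, 3 of 4 tested keratins rose, beside 8.19% of all tested genes. Probe sets of keratins can share sequence with pseudogenes, so their levels are uncertain. Of 14 other keratins measured, 2 were bright enough to test, and neither Krt10 (-0.30 ± 0.21, adjusted p = 0.38) nor Krt80 (-0.01 ± 0.21, adjusted p = 0.99) passed.

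E-cadherin, encoded by Cdh1, is the adhesion receptor that holds epithelial cells to each other. Its signals were 55.5, 118 and 109 in Folr1+/+ and 242 and 224 in Folr1-/-. Every Folr1-/- value was above every Folr1+/+ value, with a ratio of means of 2.47 and a log2 fold change of 1.23 ± 0.25 (SE, limma adjusted p = 0.0065). Epcam, which encodes an adhesion molecule of simple epithelia that also steadies claudins, had 384, 197 and 270.1 against 778 and 435. It rose by 1.04 ± 0.27 (adjusted p = 0.023), and the lower Folr1-/- array was close to the highest Folr1+/+ array. Cdh3, which encodes P-cadherin of surface epithelium and placenta, had 35.6, 5.94 and 47.0 against 38.6 and 38.5. These overlap, and its log2 fold change of 0.40 ± 0.36 (adjusted p = 0.50) was -0.06 without Folr1+/+ replicate 2, whose signal of 5.94 was the lowest. Without Folr1-/- replicate 1 neither call held, with Cdh1 at 1.17 (adjusted p = 0.088) and Epcam at 0.64 (adjusted p = 0.28). The Epcam call was also lost without Folr1+/+ replicate 2 (0.82, adjusted p = 0.062), without Folr1+/+ replicate 3 (1.04, adjusted p = 0.076) and with no filter (adjusted p = 0.085).

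Claudins are the strands of the tight junction that set which ions pass between cells. Cldn7 had signals of 426, 357 and 449 in Folr1+/+ and 1058 and 1094 in Folr1-/-. The 2 Folr1-/- arrays lay close together and well above the rest, with a log2 fold change of 1.36 ± 0.15 (SE, limma adjusted p = 0.00016). Cldn6, a claudin of embryonic epithelia, had 150.3, 125 and 134 against 344 and 323. It rose by 1.20 ± 0.16 (adjusted p = 0.00052), and the ratio of means was 2.45, beside 2.62 for Cldn7. Cldn4, a barrier-forming claudin, had 77.5, 67.9 and 82.7 against 66.1 and 73.4, which overlap (-0.10 ± 0.18, adjusted p = 0.75). Cldn3 and Cldn9 fell under the filter. Cldn3 had 30.9, 39.4 and 27.3 against 19.6 and 30.6. Cldn9 had 2.65, 22.9 and 6.78 against 4.58 and 6.86, and neither separated the groups. Of 5 measured claudins, 3 were tested and 2 rose, beside 8.19% of all tested genes. The difference between Cldn4 and the others was not tested.

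Occludin and tricellulin are related membrane proteins, the first spread along the tight junction and the second gathered where 3 cells meet. Ocln had signals of 40.0, 32.0 and 40.7 in Folr1+/+ and 121 and 95.5 in Folr1-/-. The lowest Folr1-/- value was more than double the highest Folr1+/+ value, with a log2 fold change of 1.21 ± 0.20 (SE, limma adjusted p = 0.0018). Marveld2, which encodes tricellulin, had 32.5, 47.4 and 20.3 against 67.6 and 82.2. It rose by 0.91 ± 0.25 (adjusted p = 0.028), with a wide spread in Folr1+/+. F11r, which encodes junctional adhesion molecule A, had 136, 79.9 and 93.4 against 232 and 202 and rose by 1.00 ± 0.21 (adjusted p = 0.0081). Without Folr1-/- replicate 1 the calls of Ocln (1.06, adjusted p = 0.051), F11r (0.90, adjusted p = 0.11) and Marveld2 (1.03, adjusted p = 0.12) were lost. The Marveld2 call was also lost without Folr1+/+ replicate 1 (adjusted p = 0.051) or 3 (0.098), without Folr1-/- replicate 2 (0.18), with no filter (0.093) and with the replicate number as a block (0.086). With the mean of both probe sets, of which 1 was at a signal of 15.01 or less on every array, F11r was at 0.42 (adjusted p = 0.095).

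Tjp1 encodes ZO-1, the scaffold that anchors claudins and occludin to actin and that also sits at junctions of cells without tight junctions. It had 1542, 1562 and 1629 in Folr1+/+ and 1182 and 1100.3 in Folr1-/-. It fell by 0.46 on the log2 scale (SE 0.14, limma adjusted p = 0.039), opposite in sign to the 5 tight junction membrane genes that rose. That call is narrow, and it was lost at 9 of the 14 other settings, those that left out any 1 of the 5 arrays included (adjusted p 0.054 to 0.17, fold changes -0.51 to -0.41). The fold change of Tjp1 was -0.37 (adjusted p = 0.086) with median centring. Tjp3, which encodes ZO-3 of epithelia, was under the filter, with 13.5, 11.7 and 3.88 against 17.1 and 18.8. Of 7 tested tight junction members, 5 rose, 1 fell and 1 did not pass. Over all tested genes 8.19% rose and 6.79% fell. Among 8 further tight junction genes tested, Cldn2, a pore-forming claudin of leaky epithelia, rose by 1.26 ± 0.18 (adjusted p = 0.00070), and Amot, which encodes a junction-bound regulator of YAP, by 0.75 ± 0.15 (adjusted p = 0.0059). The other 6 did not pass.

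Desmosomes join cells through 2 families of cadherins, the desmogleins and desmocollins. Dsg2 had signals of 118, 117 and 159.95 in Folr1+/+ and 293 and 350 in Folr1-/-. Dsc2 had 58.4, 77.6 and 76.7 against 182 and 214. These are the widespread desmosomal cadherins of simple epithelia and of the heart, and in both genes the groups stood apart. The log2 fold changes were 1.20 ± 0.18 for Dsg2 (SE, limma adjusted p = 0.0012) and 1.31 ± 0.19 for Dsc2 (adjusted p = 0.00070). Pkp2, which encodes the plakophilin that ties these cadherins to the plaque, had 405, 260.2 and 343 against 794 and 760 and rose by 1.19 ± 0.18 (adjusted p = 0.0012). All 3 calls held with each array left out in turn. With the mean of all probe sets of a gene, dim ones included, Dsg2 was at 0.54 (adjusted p = 0.048) and Pkp2 at 0.57 (adjusted p = 0.041). Dsg2 and Dsc2, unlike Pkp2, were slightly higher in Folr1-/- replicate 2 than in replicate 1.

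Dsp encodes desmoplakin, the plaque protein that binds keratin or other filaments in every desmosome. It had 575, 1080 and 878 in Folr1+/+ and 719 and 1055 in Folr1-/-, which overlap widely. Its log2 fold change of 0.09 ± 0.24 (SE, limma adjusted p = 0.83) turned to -0.16 without Folr1+/+ replicate 1 and to -0.18 without Folr1-/- replicate 2. Jup, which encodes plakoglobin of desmosomes and adherens junctions, had 19.9, 8.04 and 27.0 against 43.2 and 64.4. Its groups did not overlap, but it fell just under the filter, and with no filter it was at 1.05 ± 0.29 (adjusted p = 0.080). It was tested and passed with a pseudocount of 64 (0.52, adjusted p = 0.017), with the mean of probe sets (1.05, adjusted p = 0.032), and without Folr1+/+ replicate 1 (1.10, adjusted p = 0.036) or 2 (0.81, adjusted p = 0.041). Pkp3, the plakophilin of most epithelia, had 22.1, 39.6 and 26.1 against 37.5 and 36.8 (0.25 ± 0.22, adjusted p = 0.49). The plakins of stratified epithelium gave no call. Ppl, for periplakin, had 39.2, 42.5 and 57.5 against 40.8 and 35.8 (-0.19 ± 0.21, adjusted p = 0.59), and Evpl, for envoplakin, was under the filter with 28.1, 18.6 and 32.2 against 20.5 and 15.3. In this group 3 of 6 tested members rose and 0 fell, beside 8.19% and 6.79% of all tested genes. Of 2 further desmosome genes tested, Perp, a p63 and p53 target that desmosomes of skin require, rose by 1.33 ± 0.21 (adjusted p = 0.0016), and Pkp4 did not pass (-0.11 ± 0.14, adjusted p = 0.64).

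**Figure D2:**
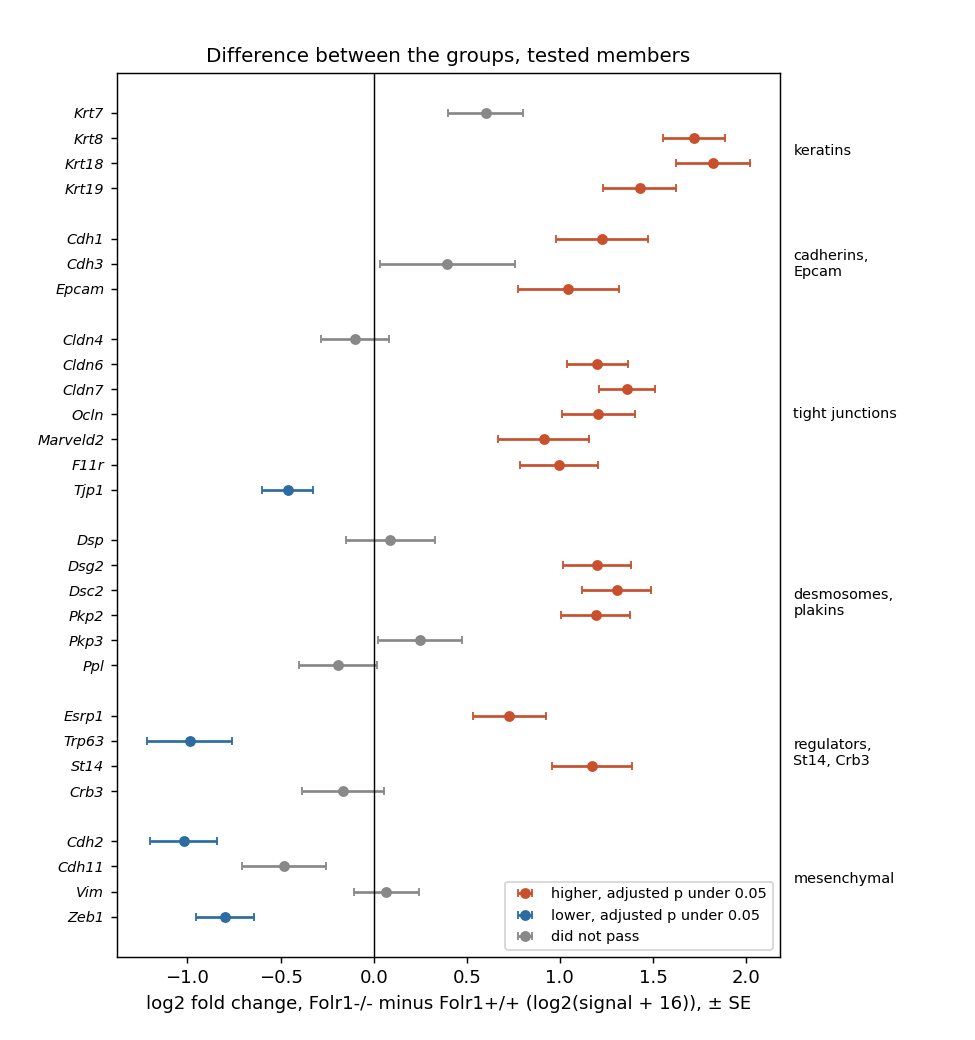
Log2 fold change, Folr1-/- minus Folr1+/+, with its SE for the 28 tested members by role, coloured by whether the limma adjusted p passed 0.05. The 15 members that rose lie to the right of 0, Krt18 farthest at 1.82, and the 4 that fell, Cdh2, Zeb1, Trp63 and Tjp1, to the left.

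The regulators went both ways. Esrp1 encodes a splicing factor that sets the epithelial form of many transcripts. It had signals of 187, 125 and 190.04 in Folr1+/+ and 267 and 300.4 in Folr1-/- and rose by 0.73 ± 0.20 (SE, limma adjusted p = 0.028). St14, which encodes the membrane protease matriptase, had 73.4, 50.6 and 90.3 against 187 and 168, so that the lowest Folr1-/- array was well above the highest Folr1+/+ array. It rose by 1.17 ± 0.21 (adjusted p = 0.0034). Trp63 encodes p63, the transcription factor of surface ectoderm and of stratified epithelium. It had 38.7, 54.8 and 68.9 against 19.9 and 17.8 and fell by 0.99 on the log2 scale (SE 0.23, adjusted p = 0.013). This is opposite in sign to Krt8, Krt18 and Krt19. Krt5 and Krt14, which p63 is known to activate, were too dim to test. Ovol1, a repressor of mesenchymal genes in skin, was under the filter with 13.6, 22.1 and 14.1 against 13.2 and 16.5.

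Calls in this role depended on single arrays. Without Folr1-/- replicate 1 those of St14 (1.10, adjusted p = 0.064), Esrp1 (0.81, adjusted p = 0.12) and Trp63 (-1.03, adjusted p = 0.095) were lost. Without Folr1-/- replicate 2 Esrp1 was at 0.65 (adjusted p = 0.17) and Trp63 at -0.94 (adjusted p = 0.090). Leaving out Folr1+/+ replicate 2 ended the call of Esrp1 (0.55, adjusted p = 0.059), leaving out Folr1+/+ replicate 3 that of Trp63 (-0.84, adjusted p = 0.067), and neither gene passed with no filter (adjusted p = 0.071 and 0.056). Of 11 further epithelial regulators and proteases tested, 6 rose, 1 fell and 4 did not pass. Over all tested genes 8.19% rose and 6.79% fell. Proteases and protease inhibitors were among those of the list that rose, Spint1 (0.88 ± 0.16, limma adjusted p = 0.0039) included. Tmprss2 rose by 2.06 ± 0.16 (adjusted p = 1.1e-05), Prss8, for prostasin, by 1.93 ± 0.18 (adjusted p = 5.0e-05), and Spint2, a membrane inhibitor of such proteases, by 1.21 ± 0.17 (adjusted p = 0.00057). Ap1m2, for an adaptor that sorts cargo to the basolateral side, rose by 0.94 ± 0.17 (adjusted p = 0.0035). The 1 that fell was Tfap2a, a factor of surface ectoderm and neural crest, at -0.67 ± 0.17 (adjusted p = 0.022).

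Crb3 encodes the small Crumbs protein that marks the apical membrane of epithelia, and its probe sets disagreed. The brightest had signals of 66.0, 86.0 and 49.9 in Folr1+/+ and 63.8 and 51.1 in Folr1-/-, which overlap (-0.16 ± 0.22, SE, limma adjusted p = 0.67). Another had 21.3, 23.8 and 13.4 against 72.8 and 74.9. Fitted on its own, a setting chosen after seeing the data, it was higher at 1.35 ± 0.21 (adjusted p = 0.0021). The third had 44.2, 64.4 and 41.4 against 20.3 and 5.66 and was lower at -1.22 ± 0.26 (adjusted p = 0.013). No direction can be given for Crb3 from these arrays. Among 13 further polarity genes, 4 rose, 1 fell and 8 did not pass, beside 8.19% higher and 6.79% lower over all tested genes. The apical kinase gene Prkcz rose by 0.93 ± 0.21 (adjusted p = 0.013), the Crumbs complex scaffold gene Patj by 0.83 ± 0.17 (adjusted p = 0.0077) and the basolateral gene Llgl2 by 0.74 ± 0.19 (adjusted p = 0.023). Pard6g, which encodes a PAR6 subunit, fell by 0.79 (adjusted p = 0.016).

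In the other members with more than 1 probe set above the signal minimum, all such probe sets of a gene had the same sign. There were 7 such members, Crb3 included, and 5 of them had the same call throughout. All 3 probe sets of Krt8 rose, by 1.72, 1.67 and 1.54, each with an SE of 0.17 or 0.18, against 12.9% of all 10973 probe sets fitted in this way passing in either direction. Pkp2 rose on both of its probe sets above the minimum (1.19 and 0.82), and its dimmer ones were not tested. Cdh2 fell on both of its probe sets (-1.02 and -0.75). Dsg2 rose on 2 probe sets (1.20 and 1.27), and another, near the signal minimum, was at 0.14 ± 0.22. Dsp (0.09 and 0.42) and Vim (0.07, 0.22 and 0.09) did not pass on any.

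**Figure D3:**
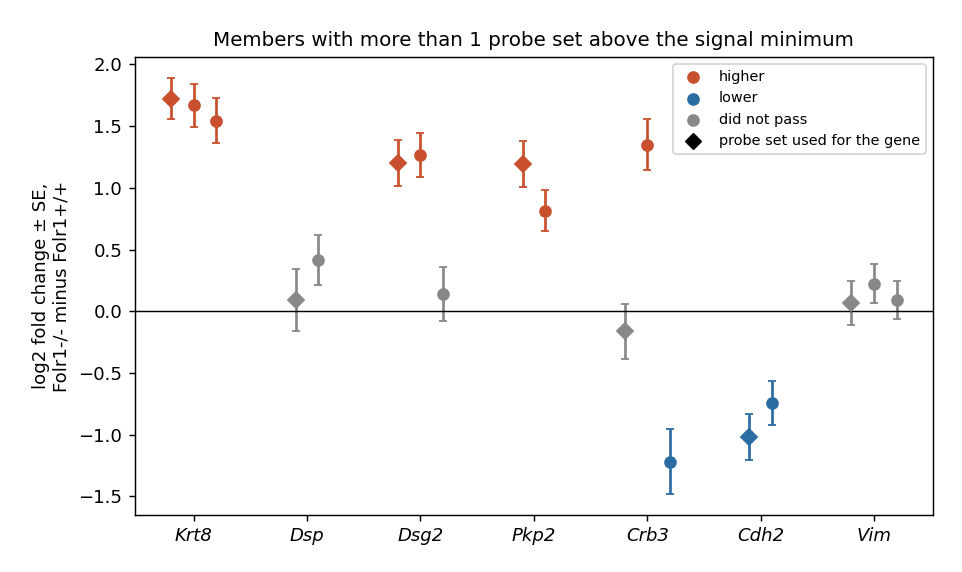
Log2 fold change, Folr1-/- minus Folr1+/+, with its SE for each probe set above the signal minimum in the 7 members that have several; diamonds mark the probe set used for the gene. Krt8 lies above 0 on 3 probe sets, and Crb3 spreads from -1.22 to 1.35.

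Among the mesenchymal members 2 of 4 tested fell, beside 6.79% of all tested genes. Cdh2 encodes N-cadherin, the main cadherin of the neural tube, somites and heart. It had signals of 431, 542 and 386 in Folr1+/+ and 189.7 and 239 in Folr1-/-. Each Folr1-/- array lay below each Folr1+/+ array, and Folr1+/+ was 2.11 times Folr1-/-. It fell by 1.02 on the log2 scale (SE 0.18, limma adjusted p = 0.0031). Zeb1, which encodes a repressor of E-cadherin, had 649, 849 and 751 against 409 and 435 and fell by 0.80 (SE 0.16, adjusted p = 0.0057). The brightest Zeb1 probe set separated the groups, and a second one, with signals of 15.1, 14.3 and 6.90 against 11.3 and 21.1, did not. With the mean of both, Zeb1 was at -0.30 (adjusted p = 0.23). Without Folr1-/- replicate 1 the calls of Cdh2 (-0.87, adjusted p = 0.058) and Zeb1 (-0.75, adjusted p = 0.063) were lost.

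The remaining mesenchymal members did not separate the groups. Vim, the intermediate filament gene of mesenchyme and of neural progenitors, had 1337, 1510.2 and 1139.9 in Folr1+/+ and 1623 and 1181 in Folr1-/-. Its log2 fold change was 0.07 ± 0.18 (SE, limma adjusted p = 0.83). The sign turned when Folr1+/+ replicate 3 was left out (-0.04) or Folr1-/- replicate 1 (-0.16). Cdh11, a cadherin of loose mesenchyme, had 351, 193 and 319 against 179.6 and 213. The low Folr1+/+ replicate 2 overlaps with Folr1-/-, so that Cdh11 did not pass (-0.48 ± 0.23, adjusted p = 0.18), and without that array it was at -0.73 (adjusted p = 0.020). Cdh6, a cadherin of early neural crest and kidney, had 35.6, 31.0 and 21.5 against 26.0 and 29.8 and was under the filter. Zeb2, the relative of Zeb1 in neural crest and brain, was also under it, with 28.1, 18.7 and 19.97 against 19.9 and 44.7.

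A list of further mesenchymal genes was chosen, like the members, with earlier results of these data known. In it 9 of 17 tested genes were lower, 0 were higher and 8 missed the threshold. Over all tested genes 6.79% were lower and 8.19% higher. By size the first 4 were Meox1 (-1.66 ± 0.32, limma adjusted p = 0.0045), Nes (-1.52 ± 0.16, adjusted p = 9.5e-05), Prrx1 (-1.35 ± 0.18, adjusted p = 0.00043) and Foxc2 (-1.17 ± 0.18, adjusted p = 0.0014). Meox1 and Foxc2 are somite genes, and Nes encodes an intermediate filament of neural progenitors rather than of mesenchyme. Of 8 further adherens junction genes tested, 1 passed, Nectin2, for an adhesion molecule that clusters with cadherins (0.71 ± 0.20, adjusted p = 0.036). Over all further lists, 14 genes rose and 11 fell among 61 tested, and with no filter 10 rose and 8 fell. The call of Nectin2 and all but 1 of the 5 polarity calls were among those lost. Without Folr1-/- replicate 1 a total of 11 passed.

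Several members lie next to each other in RefSeq's gene order, with no protein-coding gene between them. Krt8 and Krt18 are such a pair, and both rose (1.72 and 1.82). Ocln and Marveld2 are another, and both rose (1.21 and 0.91). For other pairs the values stand side by side, and no difference between neighbours was tested. Cldn6 rose by 1.20 while its neighbour Cldn9 was under the filter, and of Cdh1 and Cdh3 the first rose by 1.23 and the second was at 0.40. Cldn4, at -0.10, and its neighbour Cldn3, under the filter, did not separate the groups. Of Cdh2 and Dsc2, with 1 gene between them, the first fell and the second rose (-1.02 and 1.31).

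Marker lists of several other cell types also differed between the groups, but they are not independent of the genes above. The surface ectoderm list holds the members Trp63, Krt5 and Krt14, so its fall partly repeats that of Trp63. Krt5 and Krt14 were too dim to test. Nes, Meox1 and Foxc2 appear both among the markers and in the further mesenchymal list. Over all tested genes 8.19% rose and 6.79% fell, and with no filter 3.52% rose and 2.51% fell. All 13 measured visceral endoderm markers, genes of the absorptive epithelium of the yolk sac, rose. Their summed signal was 2528 to 3540 in Folr1+/+ and 17519 to 17710 in Folr1-/-, none was at 0, and the first 4 by size were Apoa4 (3.18), Apom (2.85), Ctsh (2.81) and Apoa1 (2.61). Gut and definitive endoderm markers rose in 7 of 7 tested, with a summed signal of 725 to 810 against 1802 to 1853, Sox17 leading at 1.85, and 4 of the 7 were called with no filter. Foxa3, 1 of the 7, had 23.6, 30.8 and 16.9 against 64.2 and 46.0, so it passed the filter through Folr1-/- alone. With no filter it was not called (limma adjusted p = 0.087). Shh, also of the gut list, was under the filter with 4.30, 4.26 and 1.02 against 5.49 and 0.591. Its groups overlapped, and with no filter it was at -0.02 (adjusted p = 0.96). Trophoblast and decidua markers rose in 3 of 3 tested (181 to 200.2 against 433 to 551), which were Prl8a2 (1.44), Plac1 (1.30) and Hand1 (0.78). With no filter 1 of these was called, Plac1. Tpbpa and Ascl2, of the same list, were under the filter, and their groups overlapped. With no filter they were at 0.16 (limma adjusted p = 0.75) and 0.40 (adjusted p = 0.47). Prl3d1, Prl2c2, Gcm1 and Pappa2 were not measured. Prl8a2 had 15.3, 13.6 and 23.2 against 143 and 34.6, so it passed the filter through Folr1-/- alone, and its 2 values there lay far apart. Both tested surface ectoderm markers, Trp63 and Tfap2a, fell (summed signal of the list 229 to 248 against 133 to 142). Trp63 passed the filter through Folr1+/+ alone, and with no filter neither was called (adjusted p = 0.056 and 0.054). The part of any of these lists in the change of the junction genes was not tested.

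Most tested markers of neural progenitors, somites, neural crest and primitive erythroid cells were lower, while the endothelial list gave no call. Over all tested genes 6.79% were lower, and with no filter 2.51% of all genes. Neural progenitor markers fell in 6 of 7 tested, with a summed signal of 1151 to 1204 in Folr1+/+ and 323 to 339 in Folr1-/-, Zic1 leading at -2.82. In 4 of these 7 genes (Zic1, Pax6, Hes5 and Fabp7) and in 3 of the 5 erythroid genes, the mean of 1 group was below the filter level, so that they were tested through the other group. Somite markers fell in 4 of 5 tested (585 to 744 against 204 to 263), and neural crest markers in 2 of 3 (705 to 867 against 216 to 289). In each of these 2 lists 1 tested gene likewise had the mean of 1 group below the filter level. Primitive erythroid markers fell in 5 of 5 tested (5219 to 6176 against 126 to 551). With no filter, 6 neural progenitor, 5 somite, 2 neural crest and 5 erythroid markers were called lower. Endothelial markers gave 0 calls by limma among 5 tested, 1 of them (Tek) at an unadjusted p under 0.05, and their summed signals overlapped (937 to 1396 against 1125 to 1189). Emcn, another marker of that list, was left out by the filter with 39.6, 50.9 and 34.5 against 14.9 and 9.64, and with no filter it was lower at -1.02 ± 0.23 (adjusted p = 0.037). The part of these lists in the change of Cdh2 and Zeb1 was not tested.

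The mean over each role had the same sign on both Folr1-/- arrays. The mean deviation of the 4 tested keratins from the Folr1+/+ mean was 1.56 and 1.23 on the log2(signal + 16) scale in Folr1-/- replicates 1 and 2, beside -0.20 to 0.20 in the Folr1+/+ replicates. For the 7 tight junction genes it was 0.75 and 0.71, beside -0.07 to 0.09, and for the 6 desmosome genes 0.58 and 0.71, beside -0.16 to 0.11. Among the regulators, St14 and Crb3 it was 0.23 and 0.15, beside -0.09 to 0.12, with opposite changes inside the group. The 4 mesenchymal genes were at -0.58 and -0.54, beside -0.06 to 0.04. Of the 15 members that rose, 10 were higher in Folr1-/- replicate 1 than in replicate 2.

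**Figure D4:**
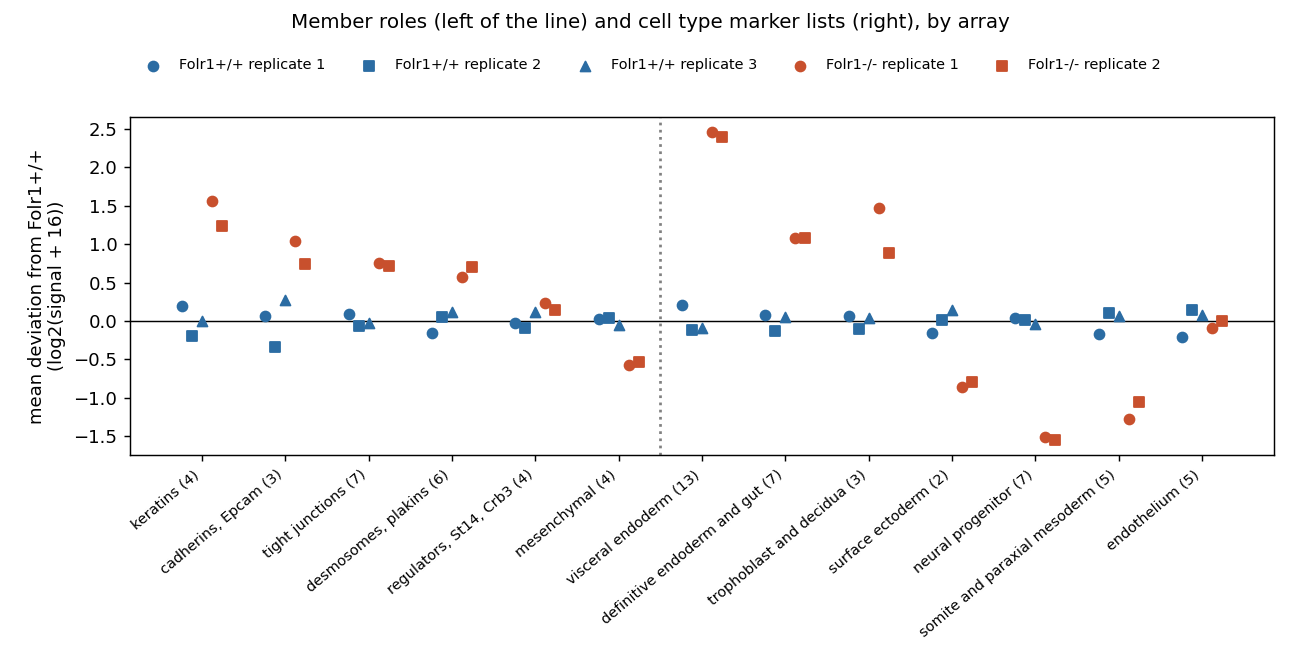
Mean deviation of the tested genes of each member role (left) and marker list (right) from their Folr1+/+ mean, per array, on the log2(signal + 16) scale, with the number of genes in brackets. In both Folr1-/- replicates keratins lie above 0 (1.56 and 1.23) and mesenchymal members below it (-0.58 and -0.54), while visceral endoderm markers lie highest.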

How the data were processed

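RNA of whole embryos was amplified in 2 rounds before labelling, per the labels' protocols, a procedure known to over-represent transcript 3' ends. The submitters' processing notes name MAS5, without a version, and the deposited values are linear intensities, 1 signal per probe set. Scaling by the authors gave every array a mean signal of 150.06 or 150.07 after trimming 2% at each end, and it was kept. Of 22690 probe sets, 20380 that are no controls had 1 gene symbol in the platform annotation. Each of 12393 genes was represented by its brightest probe set, by mean log2(signal + 16). Genes under the 40th percentile of that mean, a signal of 30.004, were left out, which left 7436. They were fitted with limma 3.58.1 in R 4.3.3 (lmFit, eBayes with an intensity trend) and adjusted by Benjamini-Hochberg over all 7436, with a threshold of 0.05. Fold changes are Folr1-/- minus Folr1+/+ on the log2(signal + 16) scale, which understates changes of dim genes. The p-values measure only the spread between these 5 arrays, whose number limits the precision. Detection calls were not used here. The code was tested on simulated data.

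The members and gene lists were chosen with earlier results of these data known. Every member is named. Of each other list, at most 4 genes past the threshold are named by size of change, otherwise the 2 with the smallest p. Genes named beyond this rule were chosen after their values were seen. Alternatives changed the pseudocount (1 or 64), the filter (none or the 60th percentile), the scaling (median centring or quantile normalization), the intensity trend, the probe set (mean of all) and the design (replicate number as a block), or left out each array in turn.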

Additional observations from a re-analysis of the deposited data

How the results depend on the processing

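Of the 19 members past the threshold, 8 kept their call at each of the 14 other settings in which they were tested (Krt8, Krt18, Krt19, Cldn6, Cldn7, Dsg2, Dsc2 and Pkp2), and none of the 19 changed sign. With each array left out in turn, 8 to 15 members rose, 0 to 4 fell and 367 to 1023 of all genes passed. By role, 3 to 4 keratins, 0 to 2 of Cdh1, Cdh3 and Epcam, 2 to 5 tight junction genes, 3 to 4 desmosome genes and 0 to 2 of the regulators, St14 and Crb3 rose, 0 to 3 mesenchymal members fell, and 11 to 23 further genes passed. The lowest of these counts came without Folr1-/- replicate 1, apart from the keratins and desmosome genes. With no filter, where more genes are tested, 2 members fell, and 1 gene each rose among Cdh1, Cdh3 and Epcam and among the regulators, St14 and Crb3. With the filter at the 60th percentile, which drops Ocln and Marveld2, 3 tight junction genes rose. With the mean of probe sets 2 members fell, 1 of them mesenchymal, and 16 further genes passed. There Trp63 was under the filter, Zeb1 missed the threshold, and Dsg2 and Pkp2 kept their calls at smaller values (0.54 and 0.57). A pseudocount of 64, which shrinks changes of dim genes, took Ocln to 0.76, Marveld2 to 0.52 and Trp63 to -0.50, all still called. Signs turned in genes that did not pass: Cdh3 (-0.064 without Folr1+/+ replicate 2), Dsp (-0.18 to 0.36 with an array left out), Vim (-0.16 to 0.29 likewise), and Crb3 on a second probe set (1.35). With the replicate number as a block, 14 members rose and 3 fell, 899 genes passed in all, and Vim was at -0.037. Folr1+/+ replicate 3 has no same-numbered Folr1-/- array. Fold changes with the block therefore equal those without that array (Krt8 at 1.73 in both), and these settings are not separate checks. Deviations of same-numbered arrays correlated at 0.019 and -0.056, so the numbers are not treated as pairs. With median centring 16 members rose and 3 fell, and 69.3% of all changed genes were higher in place of 54.7%.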
